A study of Mus musculus with 3 samples.

Results

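The matrix metalloproteinases (MMPs), the ADAMTS proteases and their inhibitors, the TIMPs, were followed through osteogenic culture of mouse bone marrow cells. The members were all genes whose symbol is Mmp with a number (and an a or b where present), Adamts with a number, or Timp1 to Timp4, and they were selected by symbol. There were 45 of them with a named array probe, 22 MMP, 19 ADAMTS and 4 TIMP genes, among 20279 named genes in all. They were covered by 59 probes. Mmp27 was not analysed here.

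The RNA was taken from primary cultures of mesenchymal stem cells (MSCs), stromal cells of the bone marrow, from male mice aged 8 weeks. The 3 groups were MSCs at day 0, and cells kept for 3 or for 21 days with ascorbic acid (50 μg/mL) and beta-glycerophosphate (10 mM), and each was measured on 1 Agilent array. All groups shared the base medium with fetal bovine serum, and the labels do not give the number of mice behind a culture. There were no replicates, so differences between days are given as values with no test. The technical SD of a log2 difference, from probes spotted 10 times on each array, was 0.17, and it covers neither cultures nor animals.

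All MMPs and ADAMTS proteases are secreted or membrane-bound enzymes with a zinc ion in the active site. MMPs cut collagens, gelatin, other matrix proteins and growth factor carriers. ADAMTS enzymes mainly trim procollagens or cut large proteoglycans such as aggrecan and versican. TIMPs block MMPs by binding the active site, and Timp3 also inhibits several ADAMTS enzymes. In bone, Mmp13 and Mmp14 are known for collagen turnover by cells of the osteoblast line, and Mmp9 is a typical product of osteoclasts.

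Values below are scaled signals, that is, Agilent's background-subtracted spot intensity after each array was brought to the same 75th percentile. A level can be compared across days for 1 gene but not between genes, since probes differ in brightness. Between a pair of days, a gene counts as measured if both arrays had its probe well above background. Where it was so on only 1 array, the bright array's signal was divided by the lowest signal that counted as detected on the dim array (10.6 at day 0, 10.8 at day 3 and 7.74 at day 21), or by the dim probe's own signal if that was higher. Such a value is written as an at-least fold. Differences of at least 2-fold are called higher or lower.

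More of these genes were detected at each later day: 20 of the 45 members were detected well above background in MSCs at day 0, and 24 and 28 members after 3 and 21 days of osteogenic culture. The same count over all named genes was 12935, 13120 and 13422. Of the members, 19 (42.2%) were above background on all 3 arrays, against 60.3% of all named genes. Another 16 (35.6%) were dim on every array, against 30.4% of all named genes. The dim ones were 10 MMP genes (Mmp1a, Mmp1b, Mmp9, Mmp10, Mmp12, Mmp16, Mmp20, Mmp21, Mmp25 and Mmp28) and 6 ADAMTS genes (Adamts3, Adamts13, Adamts16, Adamts18, Adamts19 and Adamts20). No TIMP gene was dim throughout.

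**Figure D1:**
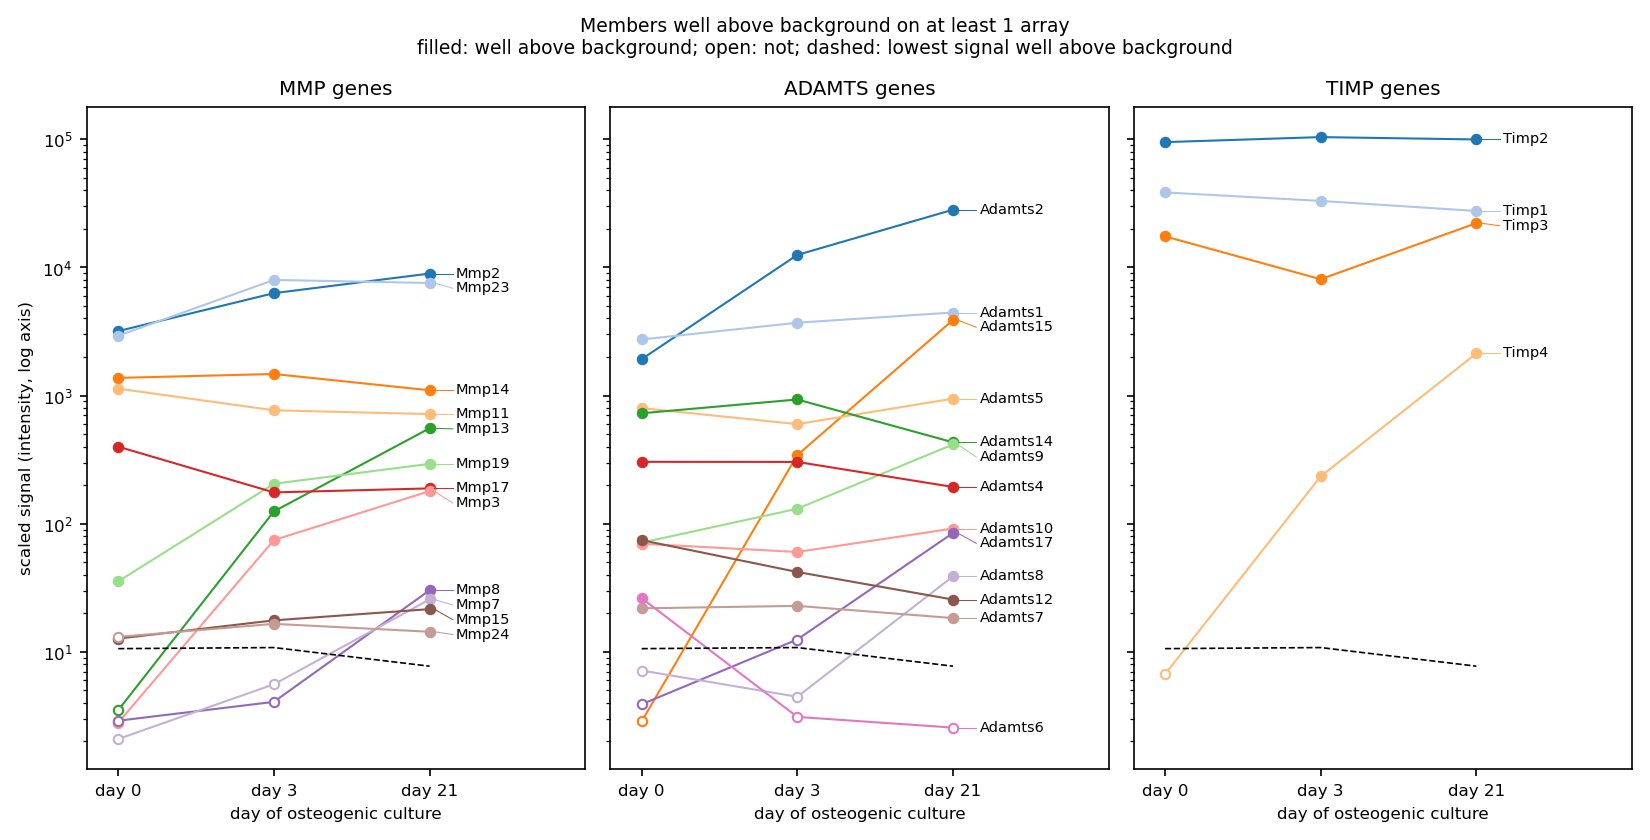
Scaled signal (intensity, log axis) of the 29 members above background on at least 1 array, at day 0, 3 and 21, with 1 array per day. Filled points are well above background, open points are not, and the dashed line is the lowest signal well above background; Adamts15 and Timp4 have open points at day 0 and reach 3885 and 2134 at day 21, whereas Timp1 and Timp2 run nearly level.

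The labelled stromal identity was checked first. All 8 stromal markers, Pdgfrb, Thy1, Eng, Nt5e, Cd44, Col1a1, Col1a2 and Vim, were above background on every array. Among 5 macrophage markers with a probe, Ptprc and Adgre1 were dim on every array, and Csf1r, Itgam and Cd14 were above background on every array. Csf1r had 598, 819 and 588 on days 0, 3 and 21, Itgam had 10012, 8543 and 14457, and Cd14 had 73.8, 202 and 343, which was 4.65-fold higher at day 21 than at day 0. Among 6 osteoclast markers, Calcr and Dcstamp were dim on every array and Acp5, Ctsk, Ocstamp and Oscar above background on all 3. Acp5 had 249, 1550 and 2960, 11.9-fold higher at day 21 than at day 0, and Ctsk had 6522, 11588 and 10351. The labelled stromal cells thus came with signal for part of both lists. Adipocyte markers were above background for 3 of 6 genes at day 0 and for all 6 at day 3 and day 21. The 3 measured at both day 0 and day 21 were all at least 2-fold higher at day 21. Their list had a summed scaled signal of 452, 5822 and 191577 on days 0, 3 and 21. Such a sum follows its brightest probes, here Fabp4 (250, 4762 and 75353) and, at day 21, Cfd (48.6, 48.4 and 72412 on days 0, 3 and 21). The sum for 6 chondrocyte markers was 12829, 12742 and 59349 on these days. Its members did not move together: Comp had 451, 2594 and 45881, whereas Col2a1 had 11905, 8943 and 9545 and Acan had 184, 54.0 and 94.1. The others were higher at day 21 than at day 0, as Comp was. Cnmd had 2.31 (not above background), 352 and 3151, and Sox9 had 280, 784 and 660. Matn3 was faint, with 6.99 (not above background), 15.7 and 18.1. Osteoblast markers (6 genes, among which Sp7 was dim throughout) summed to 737, 2631 and 6158, mostly from Spp1 (650, 2168 and 4329). Spp1 and Bglap2, the 2 measured at both day 0 and day 21, were at least 2-fold higher at day 21. Ibsp, Alpl and Dmp1 were not above background at day 0. At day 21 they were at least 63.7-fold, 29.1-fold and 3.20-fold higher. Smooth muscle markers summed to 665722, 233639 and 107030, mostly from Acta2 and Tagln. Of these 6 genes, 5 were at least 2-fold lower at day 21 than at day 0, whereas Des had 28.9, 46.5 and 45.0. The part of these other cell programmes in the values below was not tested, and in such bulk RNA fewer cells of a type and less RNA per cell cannot be told apart. The arrays for day 0 and day 21 were on 1 slide and in 1 scan. The day 3 array was on a slide of its own, and a difference of slide cannot be told apart from one of day 3.

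Sequence upstream of the genes is shown first for a set that carries the main contrast: Mmp13 and Mmp3, which lie in the MMP cluster on chromosome 9 and appeared after induction, Mmp10 of the same cluster, which stayed dim, and Timp4, an inhibitor that appeared after induction from another chromosome. Each run is 250 bases before to 50 bases after the annotated start, from RefSeq on GRCm38.p6. The windows are chr9:7272264-7272563 (plus strand) for Mmp13, chr9:7445572-7445871 (plus strand) for Mmp3, chr9:7502092-7502391 (plus strand) for Mmp10 and chr6:115252156-115252455 (minus strand) for Timp4. These 4 were chosen after the values had been seen. Capitals mark 3 motifs searched on both strands: TGACTCA, the AP-1 site, TATAAA, the TATA box, and ACCACA, a core Runx site. No match overlapped another.
Mmp13: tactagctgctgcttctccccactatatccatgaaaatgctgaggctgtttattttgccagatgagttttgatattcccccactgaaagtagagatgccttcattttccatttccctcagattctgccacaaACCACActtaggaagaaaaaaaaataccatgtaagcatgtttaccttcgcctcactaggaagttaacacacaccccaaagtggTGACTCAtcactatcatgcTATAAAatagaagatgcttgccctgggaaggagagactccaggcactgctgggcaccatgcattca
Mmp3: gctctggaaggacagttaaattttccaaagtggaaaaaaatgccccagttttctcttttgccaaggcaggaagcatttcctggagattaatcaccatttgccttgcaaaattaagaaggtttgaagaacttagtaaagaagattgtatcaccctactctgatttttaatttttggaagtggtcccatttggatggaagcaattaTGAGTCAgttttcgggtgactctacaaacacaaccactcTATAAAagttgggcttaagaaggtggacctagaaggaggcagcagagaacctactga
Mmp10: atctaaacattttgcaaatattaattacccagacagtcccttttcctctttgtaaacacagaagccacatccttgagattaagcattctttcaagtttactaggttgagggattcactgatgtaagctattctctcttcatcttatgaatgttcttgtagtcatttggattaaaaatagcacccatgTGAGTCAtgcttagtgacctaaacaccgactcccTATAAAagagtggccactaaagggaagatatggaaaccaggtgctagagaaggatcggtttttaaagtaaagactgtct
Timp4: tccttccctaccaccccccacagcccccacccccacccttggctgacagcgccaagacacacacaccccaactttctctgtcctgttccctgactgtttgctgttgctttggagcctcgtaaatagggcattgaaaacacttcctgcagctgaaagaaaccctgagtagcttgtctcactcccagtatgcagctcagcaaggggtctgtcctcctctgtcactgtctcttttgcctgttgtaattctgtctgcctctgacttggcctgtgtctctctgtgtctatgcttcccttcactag

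The windows of Mmp13, Mmp3 and Mmp10 each held 1 AP-1 motif and 1 TATA motif, and that of Mmp13 also held 1 Runx motif. The AP-1 letters began 35 bases before the annotated start in Mmp13, 46 in Mmp3 and 63 in Mmp10. The TATA letters began 16 bases before it in Mmp13, 7 in Mmp3 and 29 in Mmp10. Thus Mmp10, dim on all 3 arrays, had the same pair of motifs as Mmp13 and Mmp3 of the same cluster. None of the 3 strings is in the Timp4 window. In all 32851 RefSeq promoters of this length, 5.20% held the AP-1 motif, 13.6% the TATA motif and 16.8% the Runx motif. A match is a string of letters and does not show that a factor binds.

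Of the 45 members, 31 had a promoter in the RefSeq table. Over the 9 cluster genes with a probe, 7 held the AP-1 motif in at least 1 listed promoter, and all 7 also held the TATA motif. Among these 7, the genes Mmp13, Mmp3 and Mmp7 were above background at day 21, and the other 4 (Mmp12, Mmp1b, Mmp1a and Mmp10) were dim. Mmp8, above background at day 21, and Mmp20, dim throughout, held no AP-1 match in these windows. Outside the cluster, 0 of 22 members with a promoter held it. These counts are of genes with a match in any listed promoter, whereas the share over all RefSeq promoters counts single promoters. Mmp12 and Mmp7 each had another listed promoter without the AP-1 motif. By the first listed promoter of each gene, median base composition also differed between groups of members, though their ranges overlapped. The 12 promoters of members above background on all arrays had a median GC content of 66.5% and 20.5 CpG pairs. The 7 promoters of members that were dim at day 0 and above background at day 21 had 46.0% and 2 CpG pairs, and the 12 of members dim throughout had 54.5% and 2. Those 7 ranged from 39.0% to 80.0% GC and from 1 to 44 CpG pairs. They included the 4 cluster genes Mmp13, Mmp3, Mmp8 and Mmp7, so their median is in large part that of the cluster. Over all promoters in the table the medians were 52.7% and 7.

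Of 4 collagenases and 3 stromelysins, Mmp13, Mmp8 and Mmp3 were undetected at day 0 and detected later, Mmp1a, Mmp1b and Mmp10 were dim throughout, and Mmp11 was detected on every array. Mmp13, the main interstitial collagenase of mouse bone, had a scaled signal of 3.51 at day 0, where it was not above background, 125 at day 3 and 555 at day 21. It was therefore at least 11.8-fold higher at day 3 than at day 0, at least 52.4-fold higher at day 21 than at day 0, and 4.45-fold higher at day 21 than at day 3. Mmp3, stromelysin 1, which cuts proteoglycans and activates other MMPs, followed the same course on a smaller scale. Its signal was 2.80 at day 0 (not above background), 74.6 at day 3 and 180 at day 21, at least 7.04-fold higher at day 3 and at least 16.9-fold higher at day 21 than at day 0. Mmp3 was also 2.41-fold higher at day 21 than at day 3, a difference that was under 2-fold with normexp background correction (log2 0.79).

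Mmp8 and Mmp7 crossed the background only at day 21. Mmp8, a collagenase best known from neutrophils, had 2.90, 4.07 and 30.2 on days 0, 3 and 21, so that day 21 exceeded day 0 at least 2.85-fold. Granulocyte markers gave no single direction beside it. Camp was measured throughout, with 30.1, 170 and 186, and was 6.18-fold higher at day 21 than at day 0. Elane, also measured throughout, had 750, 979 and 536. S100a8 was above background at day 21 only (67.9, at least 6.41-fold over day 0), S100a9 at day 0 only, and Mpo on no array. Their part in the Mmp8 value was not tested. Mmp7, matrilysin, had 2.09, 5.59 and 25.6, at least 2.42-fold higher at day 21 than at day 0. Both signals at day 21 were low, within 4-fold of the faintest signals that counted as detected. The closely related collagenases Mmp1a and Mmp1b and the macrophage elastase Mmp12 were dim on every array.

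These genes are neighbours. The chromosome 9 cluster holds 10 MMP genes in the order Mmp13, Mmp12, Mmp1b, Mmp3, Mmp1a, Mmp10, Mmp8, Mmp27, Mmp20 and Mmp7 in the RefSeq table. Of the 9 with a probe, 0 were detected in MSCs at day 0, 2 after 3 days and 4 after 21 days. The 4 do not sit side by side, since Mmp13 and Mmp3 are separated by the dim Mmp12 and Mmp1b.

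**Figure D2:**
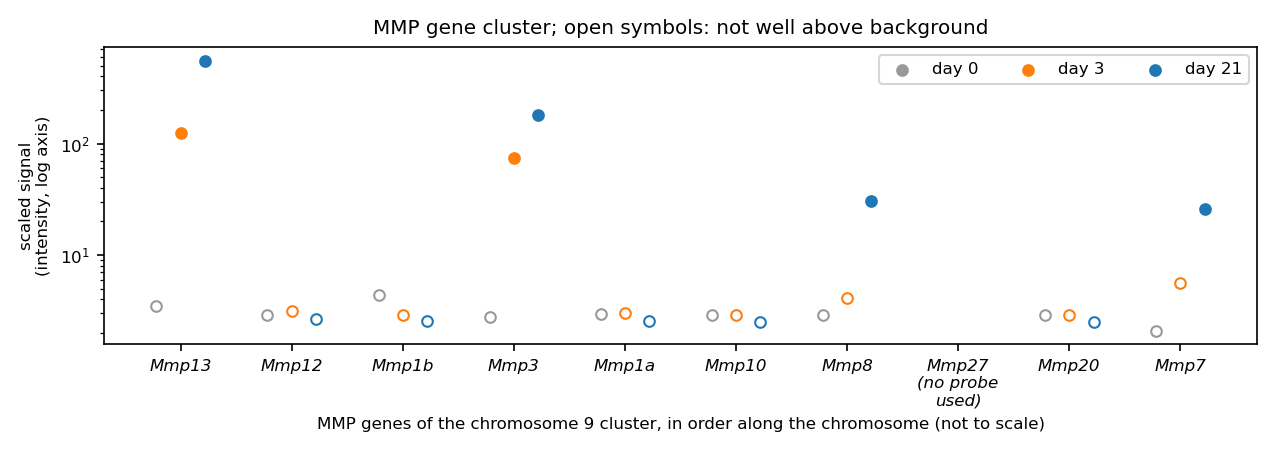
Scaled signal (intensity, log axis) of the chromosome 9 MMP genes in their order along the chromosome, not to scale, at day 0, 3 and 21 with 1 array per day. Open symbols are not well above background; filled symbols appear for Mmp13 and Mmp3 at day 3 and 21, and for Mmp8 and Mmp7 at day 21 only.

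The gelatinases differed from each other. Mmp2, gelatinase A, which cuts denatured collagen and basement membrane, was present throughout, with 3187 at day 0, 6301 at day 3 and 8960 at day 21. It was 2.81-fold higher at day 21 than at day 0 (log2 1.49). At day 3 it was 1.98-fold higher than at day 0, just inside the 2-fold line, which it passed under 3 of the alternative settings. Mmp9, gelatinase B, was dim on all arrays, with signals between 2.29 and 2.89. On the day 0 array 1 of its 10 spots was marked above background, and that spot was left out as an outlier of its replicates.

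Of 6 membrane-type MMPs, Mmp17 alone passed the 2-fold rule against day 0. Mmp14, also called MT1-MMP, is a collagenase of the cell surface that activates Mmp2, and had 1375, 1474 and 1101 on days 0, 3 and 21. Its differences from day 0 were 0.10 at day 3 and -0.32 at day 21 on the log2 scale, neither of them 2-fold. Mmp17, an MMP tethered by a lipid anchor, had 400 at day 0, 176 at day 3 and 189 at day 21. It was 2.28-fold lower at day 3 and 2.12-fold lower at day 21 than at day 0, and both passed 2-fold narrowly: normexp background correction gave log2 differences of -0.90 and -0.89. Mmp15 had a faint signal of 12.7, 17.6 and 21.6, a log2 difference of 0.76 at day 21 against day 0. Mmp24 had 13.1 (not above background), 16.6 and 14.4, at least 1.26-fold higher at day 3 than at day 0. The second Mmp24 probe was dim on every array, as were Mmp16 and Mmp25.

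Among the remaining MMPs, Mmp19 was the measured member of its family with the largest difference from day 0. Mmp19, a broadly acting MMP of the matrix and basement membrane, had 35.5 at day 0, 205 at day 3 and 293 at day 21, which was 5.77-fold higher at day 3 and 8.26-fold higher at day 21 than at day 0. Most of this difference was in place by day 3, since day 21 exceeded day 3 by 1.43-fold. With normexp background correction the Mmp19 log2 differences from day 0 were smaller, 1.41 at day 3 and 1.86 at day 21, against 2.53 and 3.05. Mmp23, anchored to the membrane by its amino-terminal end, had 2932, 7994 and 7565, and was 2.73-fold higher at day 3 and 2.58-fold higher at day 21 than at day 0. Under spike-in scaling the day 3 difference of Mmp23 was 0.90 on the log2 scale. Mmp11, stromelysin 3, had 1133, 768 and 717, or log2 differences of -0.56 at day 3 and -0.66 at day 21 against day 0, and its second probe gave -0.37 and -0.67.

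The procollagen N-proteinases, which remove the amino-terminal propeptide so that collagen can form fibrils, went in different directions. Adamts2 had 1924 at day 0, 12522 at day 3 and 28225 at day 21. It was 6.51-fold higher at day 3 and 14.7-fold higher at day 21 than at day 0, and 2.25-fold higher at day 21 than at day 3. Its second probe gave nearly the same log2 differences, 2.52 at day 3 and 3.89 at day 21, against 2.70 and 3.87 for the first. Adamts14 had 728, 933 and 432, and was 2.16-fold lower at day 21 than at day 3. That call was lost under spike-in scaling (log2 difference -0.82) and under normexp background correction (-0.87). The second Adamts14 probe was dim on every array. Adamts3 was also dim on every array.

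Adamts15 had the largest difference among members measured at both day 3 and day 21. This enzyme, which cuts aggrecan and versican, had a scaled signal of 2.87 at day 0 (not above background), 343 at day 3 and 3885 at day 21. That was at least 32.4-fold higher at day 3 and at least 367-fold higher at day 21 than at day 0, and 11.3-fold higher at day 21 than at day 3. Adamts9, another proteoglycan-cutting enzyme, had 71.2, 131 and 416, and was 5.84-fold higher at day 21 than at day 0 and 3.18-fold higher at day 21 than at day 3. At day 3 its log2 difference from day 0 was 0.88.

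Adamts1, Adamts4 and Adamts5, which also cut proteoglycans, stayed within 2-fold by their main probe. Adamts1 had 2742, 3706 and 4450 on days 0, 3 and 21, a log2 difference of 0.70 between day 21 and day 0. Adamts4, called aggrecanase 1, had 304 at both day 0 and day 3 and 194 at day 21, a log2 difference of -0.65 at day 21 from either earlier day. Adamts5, aggrecanase 2, had 798, 599 and 947 on its brighter probe. Its other probe had 197, 359 and 721, so the pair gave log2 differences of opposite sign at day 3 against day 0 (-0.41 and 0.87) and unequal ones at day 21 against day 0 (0.25 and 1.87). The 2 probes thus leave the course of Adamts5 unsettled. Adamts20 was dim.

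Adamts8 also had probes that disagreed. One probe had 7.16, 4.47 and 38.8 and was above background at day 21 only, at least 3.66-fold over day 0, whereas the other had 9.72, 16.9 and 7.44 and was above background at day 3 only. Adamts8 follows Adamts15 on chromosome 9 with no other protein-coding gene between them in the RefSeq table, and Adamts1 and Adamts5 are such a pair on chromosome 16. In the second pair the main probes gave log2 differences of 0.70 for Adamts1 and 0.25 for Adamts5 at day 21 against day 0.

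The 2 enzymes that cut the cartilage protein COMP differed from each other. Adamts12 had 74.4 at day 0, 42.0 at day 3 and 25.6 at day 21, and was 2.91-fold lower at day 21 than at day 0. With normexp background correction that log2 difference was -0.77, against -1.54. Its second probe had 24.4, 26.9 and 9.52, the last not above background. At day 3 against day 0 that probe gave a log2 difference of 0.14, opposite in sign to -0.82 from the first. Adamts7 had 21.9, 22.9 and 18.4, with differences under 2-fold throughout.

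Of the members linked to fibrillin microfibrils, Adamts10 had 69.8, 60.2 and 91.7 and stayed within 2-fold of day 0. Adamts6 was above background at day 0 only. Its signal of 3.11 at day 3 and 2.57 at day 21, against 26.3 at day 0, made it at least 2.43-fold and at least 3.40-fold lower, and it was the 1 member with an at-least fold in that direction. Adamts17 was above background at day 21 only, with 3.90, 12.5 and 84.6, at least 7.98-fold higher than at day 0. Its second probe was above background at day 21 only as well (15.3). Adamts13, which cuts von Willebrand factor, was dim.

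Timp4 was the 1 inhibitor not detected at day 0. Timp4, known from heart and fat tissue, had 6.69 at day 0 (not above background), 234 at day 3 and 2134 at day 21. It was at least 22.1-fold higher at day 3 and at least 201-fold higher at day 21 than at day 0, and 9.12-fold higher at day 21 than at day 3. Adipocyte marker signal rose over the same days, as given above, and its part in the Timp4 value was not tested.

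Timp3, the TIMP that binds to matrix, was low at day 3 and high at both ends: 17486 at day 0, 8096 at day 3 and 22160 at day 21. It was 2.16-fold lower at day 3 than at day 0 and 2.74-fold higher at day 21 than at day 3, while day 21 exceeded day 0 by 1.27-fold. With quantile normalization the day 3 difference from day 0 was -0.97 on the log2 scale. Timp1 had 38523, 33055 and 27583, within 2-fold on all days. Timp2, which inhibits MMPs and also takes part in the activation of Mmp2 by Mmp14, had 95065, 104071 and 99757. Its second probe gave a log2 difference of -0.48 at day 21 against day 0, against 0.07 for the brighter one. The sign of the Timp1 difference at day 21 changed with the scaling of the arrays. For Timp2 the sign changed with the scaling or the choice of probe on both days, so no direction is given for these.

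**Figure D3:**
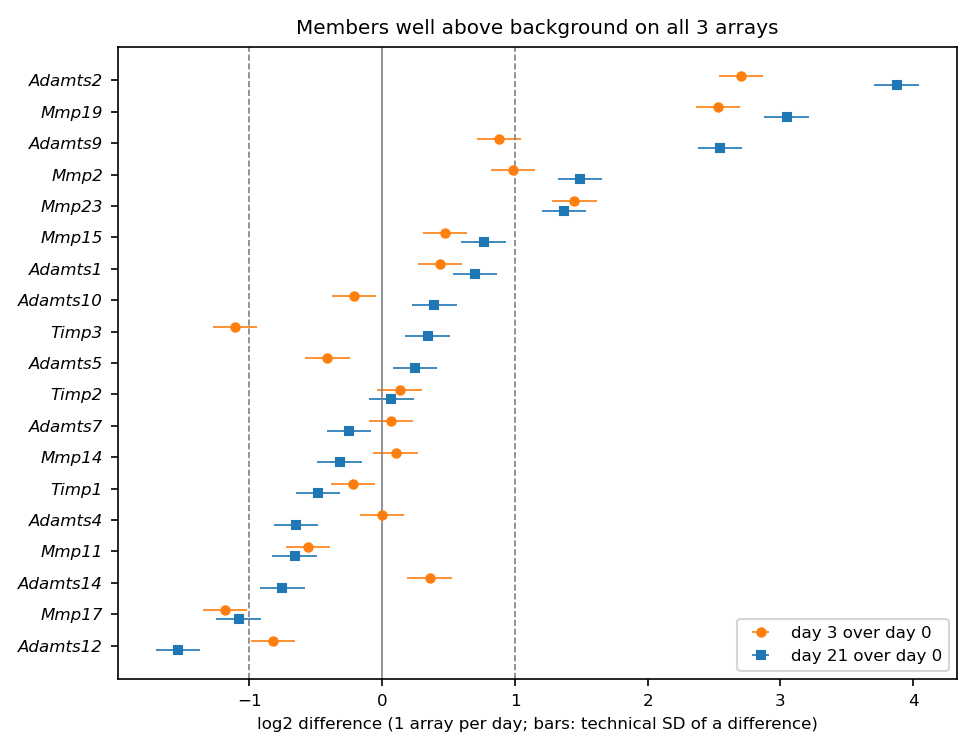
Log2 differences from day 0 at day 3 (circles) and day 21 (squares) for the 19 members well above background on all 3 arrays, with bars of 1 technical SD of a difference and dashed lines at 2-fold. The bars come from spots within an array and do not cover spread between arrays, slides or cultures. Adamts2 and Mmp19 lie farthest to the right on both days, and Timp3 is the gene whose day 3 point is below -1 and whose day 21 point is above 0.

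Counted over the families at day 3 against day 0, 3 of 19 measured members were at least 2-fold higher (Adamts2, Mmp19 and Mmp23), against 7.73% of all measured genes. On the other side 2 of 19 were at least 2-fold lower (Mmp17 and Timp3), against 7.85%. Of 6 members above background on only 1 of the arrays, 4 were at least 2-fold higher by a bound (Adamts15, Timp4, Mmp13 and Mmp3), against 26.6% of all such genes, and 1 was lower (Adamts6), against 16.0%. A bound can only point to the array where the gene was detected. Counts of bounds, here and in the comparisons below, therefore follow the detection counts and add no separate support. The median log2 difference of measured members was 0.10, and that of all 12455 measured genes was -0.08.

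For day 21 against day 0, 5 of 19 measured members were at least 2-fold higher (Adamts2, Mmp19, Adamts9, Mmp2 and Mmp23), against 12.8% of measured genes. In the other direction 2 of 19 were at least 2-fold lower (Adamts12 and Mmp17), against 16.8%. By a bound 8 of 10 were higher (Adamts15, Timp4, Mmp13, Mmp3, Adamts17, Adamts8, Mmp8 and Mmp7), against 36.3%, and 1 was lower, against 25.2%. The median was 0.25 for measured members and -0.21 for all 12387 measured genes.

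Between day 21 and day 3, 7 of 24 measured members were at least 2-fold higher (Adamts15, Timp4, Mmp13, Adamts9, Timp3, Mmp3 and Adamts2), against 7.75% of measured genes, and Adamts14 alone was at least 2-fold lower, against 7.11%. Of 4 members with a bound, all 4 were higher (Adamts17, Adamts8, Mmp8 and Mmp7), against 23.9%, and 0 were lower, against 21.7%. By the probes that stand for them, these 4 were detected at day 21 and not at day 3, so their bounds could take no other direction. The medians were 0.28 for measured members and -0.10 for all 12739 measured genes. The 3 comparisons share arrays and are not independent of each other. With so few members these shares describe the arrays and were not tested.

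**Figure D4:**
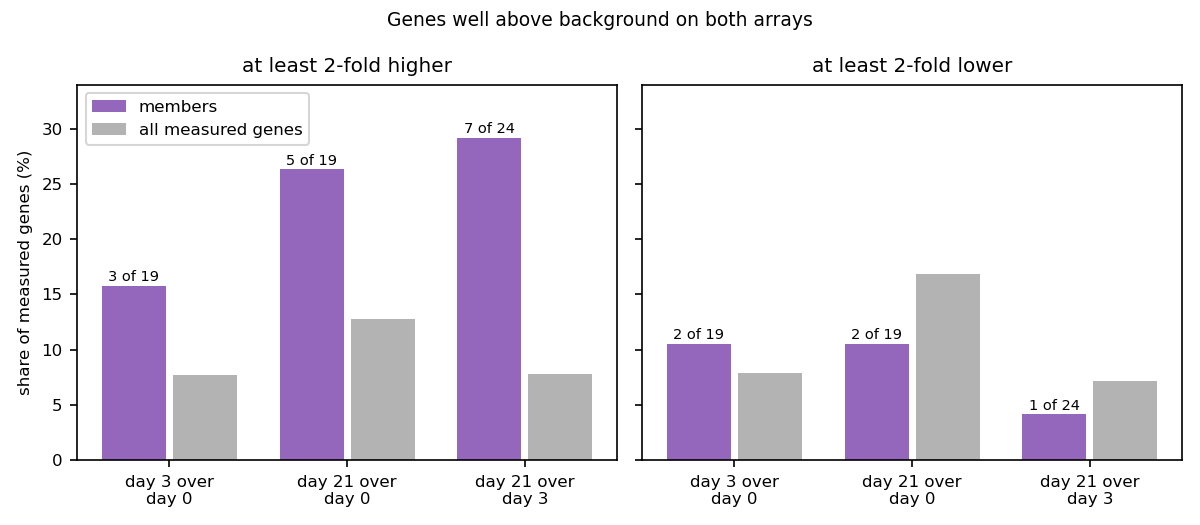
Share of genes (%) at least 2-fold higher (left) or lower (right) in each comparison, for measured members (purple, with counts) and for all measured genes (grey), from 1 array per day. In the left panel the purple bars, 15.8%, 26.3% and 29.2%, are above the grey ones in all 3 comparisons.

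Genes that work with these proteases were counted in the same way. The counts below are for day 21 against day 0, where the median over all measured genes was -0.21 and the shares past 2-fold were 12.8% (higher) and 16.8% (lower), and no list is called apart from these shares. Among 10 activators and cofactors, all measured, 2 were at least 2-fold higher and 2 lower at day 21 than at day 0, with a median of -0.20. Plaur, the urokinase receptor at the head of the plasmin route to MMP activation, was at -4.67 on the log2 scale, and its ligand Plau at -1.98. The proprotein convertase Pcsk5 was at 2.67 and the tissue plasminogen activator Plat at 1.19.

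Of 5 measured genes linked to protease inhibition or clearance outside the TIMPs, 2 were higher at day 21 than at day 0 and 1 was lower. The higher ones were the proteoglycan Spock2 (2.98), not taken as an inhibitor here, and the membrane-anchored MMP inhibitor Reck (1.83). The lower one was thrombospondin Thbs1 (-1.22). Spock1, Spock3 and A2m of the same list were dim on every array. Lrp1, the receptor that clears several of these proteases, was at 0.65. Tfpi2 was above background at day 21 only and at least 2.71-fold higher. The ADAMTS-like proteins, which resemble ADAMTS enzymes but lack the protease domain, had 3 of 4 measured members at least 2-fold higher and 0 lower. Adamtsl2 was at 3.11, Adamtsl1 at 2.38, Adamtsl4 at 2.33 and Adamtsl3 at 0.54, with a median of 2.36.

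Of 10 measured ADAM proteases, relatives that mostly shed proteins from the cell surface, 2 were higher (Adam23, 2.61, and Adam22, 1.48) and 1 lower (Adam19, -1.69) at day 21 than at day 0, with a median of 0.05 and Adam12 at 0.95. Of 4 measured genes for procollagen C-terminal processing and other astacins, 0 were higher and 1 was lower (Tll1, -1.50). Bmp1, the main procollagen C-proteinase, was at -0.01, and its enhancers Pcolce and Pcolce2 at 0.92 and 0.69.

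Among 11 measured substrates 3 were higher and 0 lower at day 21 than at day 0, with a median of -0.32. Comp was at 6.67, collagen Col3a1 at 1.79 and elastin Eln at 1.13, and aggrecan Acan was at -0.97. Factors that act on MMP promoters had 0 of 12 higher and 4 lower, with a median of -0.93. They were the Ets factor Etv4 (-4.22) and the AP-1 subunits Fosl1 (-2.98), Junb (-1.32) and Fos (-1.30), and Fos was higher at day 3 than at day 0 (1.41). These values stand beside the bounds for Mmp13 and Mmp3, which were higher, and no link between them was tested. Of 4 measured inducing cytokines and growth factors 1 was higher (Fgf2, 1.68) and 2 lower (Il6, -3.61; Pdgfa, -1.82), with Tgfb1 at -0.76, and Lif was at least 2.90-fold lower by a bound. Il1a, Il1b, Tnf and Osm were dim on every array.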

How the data were processed

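The authors deposited 1 Agilent scanner file per sample, with linear spot intensity from Feature Extraction: version 10.10.1.1 per the file headers, 12.0 per the submitters' processing notes. Background subtraction and spatial detrending had been applied to it on each 1-colour (Cy3) array, per the file headers, with no scaling across arrays. The value table that was deposited held the same intensity (largest difference 0).

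From these files, log2 processed signal minus the array's 75th percentile (172, 175 and 191 at day 0, 3 and 21) was computed over 59305 non-control spots. Spots marked as outliers were left out (200, 115 and 146), no spot was saturated, and spots of a probe were averaged. A probe was well above background when 50% of its spots were marked so. Printed signals were multiplied back to a common percentile of 179. Transcript accessions named 26755 probes through a RefSeq table of GRCm38.p6; 28909 probes stayed unnamed. The files' own build was mm9; gene order, gene overlaps and the promoter windows are those of the RefSeq tables on GRCm38.p6, and no coordinate of the files was used. Where a gene had several probes, the one with the highest mean over the arrays stands for it, as in 14 members. Every member above background on at least 1 array is named with its values; of each related list, up to 4 measured genes with the largest difference at day 21 against day 0 are given.

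The call rule was checked on simulated data. The members and the gene lists were chosen with earlier results of these data known. Python 3.11.15, pandas 2.3.3, numpy 2.4.6 and limma 3.58.1 (for normexp) were used. The number of arrays limits the precision.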

Additional observations from a re-analysis of the deposited data

How the results depend on the processing

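The 20 differences between measured members past 2-fold kept their sign under each of 7 alternatives (3 scalings, normexp background correction with offset 50 on the median signals, no filter on dim genes, the mean over probes, and outlier spots kept), and 13 of them stayed past 2-fold in all 7. Leaving out the filter cannot change these values, and the mean over probes can change only those of members with several probes. Keeping outlier spots moved 0 of 62 values. Of 42 differences under 2-fold, 16 changed sign under at least 1 alternative, 13 of these under spike-in scaling.

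Spike-in scaling shifted the median of all genes by -0.54 (day 3 against day 0), -0.25 (day 21 against day 0) and 0.29 (day 21 against day 3). It gave members' medians of -0.44, -0.00665 and 0.57. Their distance from the median of all genes cannot change, since this scaling shifts every gene of an array equally. With it, 4 members were lower at day 3 than at day 0 and 0 were lower at day 21 than at day 3. Of all genes past 2-fold in these comparisons, 13.9%, 28.9% and 76.9% were then higher, against 49.6%, 43.2% and 52.1%. The 75th percentile of detected spots shifted the median of all genes by up to 0.17 and gave a members' median of 0.42 and 1 lower member at day 21 against day 0; of all genes past 2-fold, 54.4% were then higher at day 21 than at day 0 and 62.6% at day 21 than at day 3. With quantile normalization (shift up to 0.11) 1 member was lower at day 3 than at day 0, and the median at day 21 against day 3 was 0.50. With normexp the lower members numbered 1 (day 3 against day 0), 0 (day 21 against day 0) and 0 (day 21 against day 3).

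Counting bounds gave 7, 13 and 11 higher members in the comparisons of day 3 with day 0, day 21 with day 0 and day 21 with day 3. The same counts came without a filter on dim genes, largely by construction, since that setting puts dim signals at the lowest detected signal of the array. It also takes in the genes dim on both arrays. Its members' medians at day 21 were -0.45 against day 0 and -0.26 against day 3, and those of all genes -0.45 and -0.47. The -0.45 is set by the lowest detected signals at day 0 and day 21 (10.6 and 7.74) and is no fall of the members. A 3-fold rule left 3 members higher and 0 lower at day 21 against day 0, 4 higher and 0 lower at day 21 against day 3, and 0 lower at day 3 against day 0. The cause of these changes was not tested beyond the construction of each setting. Naming probes by a gene name column was not run, since the files used here give accessions. With 1 array per group no array could be left out, and no paired analysis was possible because each group had 1 sample. Signal near background limits the faint members, such as Mmp7, Mmp8, Mmp24, Adamts6 and Adamts8.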

Other observations

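Each of the 4 TIMP genes shares its stretch of genome with another gene in the RefSeq table: Timp1 with Syn1, Timp3 with Syn3, Timp4 with Syn2 and Timp2 with Cep295nl. The synapsins Syn1, Syn2 and Syn3 are best known from nerve endings. Syn2 had a scaled signal of 8.02 at day 0 (not above background), 68.9 at day 3 and 193 at day 21, so it appeared on the same arrays as Timp4. Syn1 had 182, 77.8 and 70.1 on these days beside a Timp1 signal within 2-fold. Syn3 was dim on all 3 arrays (4.45, 4.72 and 7.54) while Timp3 was bright on all of them. Cep295nl had 208, 152 and 78.8 beside a nearly level Timp2. These genes were looked up after the TIMP values had been seen, and no link between the partners was tested.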
